A study of Homo sapiens with 28 samples.

Results

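The regions described here are distal sites of acetylated chromatin that were marked in all 4 treatments of EPC2 cells and lay at none of the STAT6 or VDR binding regions used to select them. EPC2 is an immortalised human esophageal epithelial line. Cells stayed untreated or received 100 ng/ml of IL-13, 100 nM of vitamin D, or the combination for 6 h, so all groups share 1 line and 1 time point, and the form of vitamin D is not given in the labels. ChIP-seq of H3K27ac, H3K9ac and H3K4me3 was made once per treatment, STAT6 was profiled untreated and with IL-13, and VDR untreated and with vitamin D, giving 16 libraries. RNA was sequenced in 3 samples per treatment, and no label says whether those were separate cultures. A region was chosen by these criteria: an intergenic H3K27ac region of untreated cells shorter than 4000 bases that shared at least 1 base with an H3K27ac region in each of the 3 treated libraries and none with untreated H3K4me3, STAT6 with IL-13 or VDR with vitamin D. Of 91881 untreated H3K27ac regions, 27389 were intergenic and 27032 of these were under 4000 bases. Sharing with the IL-13 library left 11351, sharing also with vitamin D left 8965, and sharing with the combined treatment left 8191. Removing H3K4me3 left 7010, removing STAT6 left 6517, and removing VDR left 5614 regions, called shared distal regions below.

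H3K27ac and H3K9ac are acetylations of histone tails placed at active regulatory DNA, while H3K4me3 marks active promoters, so H3K27ac away from H3K4me3 is the usual mark of an active enhancer. STAT6 is the transcription factor activated by the IL-13 receptor, and VDR is the nuclear receptor that binds vitamin D. Enhancers of squamous epithelium keep keratinocyte genes active from positions that can lie far from the gene.

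Presence in all 4 lists came from the selection, so H3K27ac presence and height are given below as a description without a test. With 1 ChIP library per mark and treatment there is no replicate check of any change. Heights are the fold enrichments of the authors' peak caller, taken at the highest summit of a region. The untreated H3K27ac library had the highest background, 2.40 fragments per base against 1.51, 1.73 and 1.57 with IL-13, vitamin D and both, and the longest list (91881 regions against 67183 to 72629). The cells carried their squamous identity in the authors' deposited tables, with all 9 of 9 squamous markers at 1 RPKM or more untreated and a summed level of 33249 to 38340 RPKM over the 4 treatments. Simple-epithelium markers summed to 258 to 276 RPKM, with KRT8 at 221 untreated and KRT20 and CDX2 listed at 0. Markers of fibroblasts summed to 6.04 to 15.4 RPKM, of endothelium to 0.53 to 3.17 and of smooth muscle to 0.20 to 0.43 in the same deposited tables. Leukocyte markers summed to 53.4 RPKM untreated, 51.8 under IL-13, 193 under vitamin D and 272 under both, where CD68 (50.8 RPKM untreated) and CD14 (132 RPKM with vitamin D) made up most of the sums, while PTPRC, which defines leukocytes, was listed at 0 untreated in the authors' deposited table.

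The sequence of the regions themselves was not analysed here, for want of a genome of the files' build. The promoters of 3 genes that had many of these regions nearest to them are shown instead, because their starts carried H3K4me3 and H3K27ac in every library while H3K4me3 was barred from the regions themselves. Each is the 250 bases before the start from RefSeq (GRCh38.p14), with capitals marking matches on either strand to the GC box GGGCGG and the CCAAT box CCAAT. KLF6 lies on the minus strand at chr10:3785210-3785459, KLF4 on the minus strand at chr9:107489770-107490019 and JAG1 on the minus strand at chr20:10674000-10674249.
KLF6: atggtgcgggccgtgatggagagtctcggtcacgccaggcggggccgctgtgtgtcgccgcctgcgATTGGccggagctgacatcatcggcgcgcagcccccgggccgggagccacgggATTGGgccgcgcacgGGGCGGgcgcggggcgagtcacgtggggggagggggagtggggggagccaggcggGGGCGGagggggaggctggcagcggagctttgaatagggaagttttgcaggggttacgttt
KLF4: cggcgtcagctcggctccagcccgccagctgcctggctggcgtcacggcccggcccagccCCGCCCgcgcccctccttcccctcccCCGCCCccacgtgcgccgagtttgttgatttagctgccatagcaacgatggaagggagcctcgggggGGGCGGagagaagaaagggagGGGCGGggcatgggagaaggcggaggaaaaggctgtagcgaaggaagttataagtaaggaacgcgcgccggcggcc
JAG1: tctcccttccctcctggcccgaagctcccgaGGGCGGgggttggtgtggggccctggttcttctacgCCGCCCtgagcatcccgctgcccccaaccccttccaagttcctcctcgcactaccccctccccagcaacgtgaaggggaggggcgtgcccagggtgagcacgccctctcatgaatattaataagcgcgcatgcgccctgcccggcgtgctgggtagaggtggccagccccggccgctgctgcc
The KLF6 window held 2 GC boxes and 2 CCAAT boxes, the KLF4 window 4 GC boxes and the JAG1 window 2, with no overlap between the motifs. Over all 35116 promoters of the RefSeq table, 42.6% held a GC box and 32.0% a CCAAT box. AP-1 (TGANTCA) and KLF (GGGTGTG) motifs, searched in the same windows, matched none of these 3 and occurred in 6.57% and 6.63% of all promoters. Of the 2638 genes nearest to a shared distal region, 1640 had an entry, and 54.0% of their 2431 promoters held a GC box. A CCAAT box was in 33.4% of these promoters, AP-1 in 5.84% and KLF in 6.66%. Their median GC content was 62.4%, against 58% over all promoters, and the part of this in the GC box share was not tested. At the KLF6 start, counted within 1000 bases on hg19, H3K4me3 fold enrichment was 48.0 untreated, 50.8 under IL-13, 45.4 under vitamin D and 52.7 under both. The JAG1 start stood at 69.2, 69.7, 57.7 and 62.0 in the same order. H3K27ac at the KLF4 start gave 21.7, 14.5, 16.8 and 16.0. These 3 genes were picked for printing after their values were seen. None of the 20 genes with most regions nearest to them had a STAT6 (IL-13) or VDR (vitamin D) region within 1000 bases of its start.

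Shared distal regions were mid-sized, with several summits each. Their median length was 1371.5 bases (143 to 3995) and their median number of summits was 3, up to 14. The median fold enrichment was 8.76 untreated (2.92 to 33.0), 5.95 with IL-13 (3.31 to 27.8), 6.93 with vitamin D (3.47 to 32.4) and 6.39 with both (3.19 to 30.7). Intergenic regions of the same length limit that were missing from at least 1 treated list were shorter and lower, with a median length of 256 bases and a median untreated fold of 4.17. Shared intergenic regions at H3K4me3 had a median untreated fold of 12.1, and those at STAT6 or VDR 10.9. Heights in the treated libraries kept much of the untreated order, with Spearman coefficients of 0.70 for IL-13, 0.77 for vitamin D and 0.68 for both over 5614 regions, which share their selection on the same lists. At the length limit, the longest regions kept were chr18:58558872-58562866 with 3995 bases and an untreated fold of 14.2, and chr2:119143293-119147286 with 3994 bases and 20.9. The nearest left out for length were chr7:130535240-130539250 with 4011 bases and 17.9, and chr6:7056841-7060853 with 4013 bases and 20.4.

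**Figure D1:**
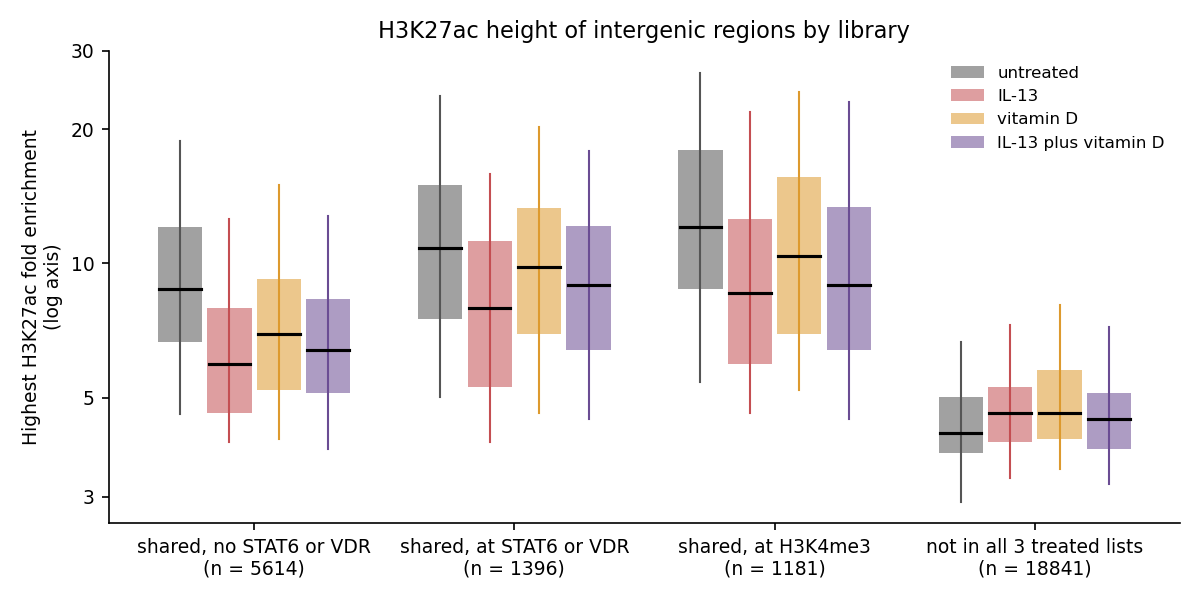
Highest H3K27ac fold enrichment (log axis) of intergenic regions by class and library: bars span the 25th to 75th percentile, lines the 5th to 95th, and black marks the median; n is the number of untreated regions, and treated values exist only where a treated region overlaps. Shared regions without STAT6 or VDR sit between regions missing from a treated list (median untreated fold 4.17) and shared regions at H3K4me3 (12.1).

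The highest of these regions were high in every library. The region with the highest minimum over the 4 libraries, chr3:126792949-126795003, lay 85.5 kb from the start of PLXNA1, which encodes a semaphorin receptor. Its fold enrichment was 32.6 untreated, 21.8 under IL-13, 31.8 under vitamin D and 22.4 under both, and it also carried H3K9ac at 13.7, 10.1, 13.6 and 11.6. Next came chr10:120281123-120284753, 70.4 kb from PRLHR, with H3K27ac folds of 30.5, 23.1, 22.5 and 21.7. The region chr11:109565732-109568484 lay 273 kb from the nearest start, that of C11orf87, and stood at 32.6, 23.8, 27.2 and 20.4. All 3 had H3K9ac in every library and lay over 50 kb from any STAT6 (IL-13) or VDR (vitamin D) region. At chr4:10396770-10399100, 59.9 kb from ZNF518B, the folds were 29.2, 21.8, 23.1 and 20.4. One of the highest lay close to bound VDR: chr2:159748260-159751081, 74.1 kb from TANC1, stood 1920 bases from a VDR region, with folds of 32.6, 23.8, 26.6 and 18.5.

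Presence in all 4 lists did not mean equal height. The median log2 ratio of treated to untreated fold was -0.54 for IL-13, -0.36 for vitamin D and -0.56 for both, against -0.45, -0.26 and -0.39 over all untreated regions with a partner in that library. Ratios below are centred on the latter medians. With that centring, shared distal regions had medians of -0.09, -0.10 and -0.17. Under IL-13, 349 of 5614 (6.22%) lay more than 1.5-fold above and 515 (9.17%) more than 1.5-fold below, where all regions with a partner gave 11.1% above and 5.79% below. Under vitamin D the shares were 4.35% above and 8.23% below, against 8.92% and 4.35% over all. Under both agents they were 6.16% above and 11.9% below, against 10.9% and 6.45%. Since the rule used these lists, nothing is read from those shares. Among members with an untreated -log10 q of at least 10 the shares above were 1.59%, 1.23% and 1.44%, and with pileup in place of fold the uncentred medians were -1.29, -0.89 and -1.25. With the ratio centred on shared regions at H3K4me3 instead, the split turned for IL-13, to 8.85% above and 7.02% below, and narrowed for vitamin D to 5.40% and 6.06% and for both to 7.59% and 8.57%.

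In all, 3738 regions (66.6%) stayed within 1.5-fold of the library median in all 3 treatments, and 1876 (33.4%) went past it in at least 1. Without centring, 1730 stayed within 1.5-fold in all 3, so "stable" describes presence better than height. In all 3 treatments 73 regions lay above and 55 below, and 10 lay above in 1 treatment and below in another. Counting error alone is wide at these depths: the median pileup was 20 fragments untreated and 8, 11 and 9 in the treated libraries, for which the Poisson standard deviation of a log2 ratio is 0.60, 0.54 and 0.58. The standard deviation over regions of the centred ratio was 0.43, 0.39 and 0.44. These are smaller than the Poisson values, which therefore do not describe the spread of these selected regions. By the Poisson value, a ratio of 1.5-fold in 1 region of median height is of the size of a single counting standard deviation. By untreated height, of the 1404 regions lowest in fold 20.01% lay above and 0% below under IL-13. Of the 1404 highest, 0.43% lay above and 18.3% below. The 0% was fixed in advance: the selection required a called region with IL-13, and the lowest such fold was 3.31. None of the 1404 lowest, with untreated folds up to 6.68, could therefore lie more than 1.5-fold below. No result is read from this split. The untreated height is also the divisor of the ratio, and the part this plays was not tested.

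Regions with the highest ratios were short and low before treatment, and several lay near, without touching, a factor region. At chr20:22754287-22754514, a 228-base region 188 kb from FOXA2, the fold was 3.34 untreated, 18.5 under IL-13, 5.20 under vitamin D and 22.4 under both, and a STAT6 region lay 1697 bases away and a VDR region 859. The region chr6:36611854-36612075 stood 185 bases from a STAT6 region and gave 4.17 untreated, 15.2 under IL-13, 3.47 under vitamin D and 16.0 under both. Both sites had high folds in the 2 libraries with IL-13 and low folds in the others. A treated fold is that of any overlapping treated region, whose summit can lie outside the short untreated region. Whether those treated regions reached a factor region was not recorded site by site. Another of the highest IL-13 ratios was high with IL-13 alone: chr2:28657938-28658679, 42.2 kb from FOSL2. It gave 4.59 untreated, 19.8 under IL-13, 4.62 under vitamin D and 3.83 under both. A STAT6 region lay 12314 bases from it and a VDR region 722. For vitamin D, chr10:74056348-74056529, 22.7 kb from the stress-response gene DDIT4 and 739 bases from a VDR region, gave 3.76 untreated, 3.31 under IL-13, 22.0 under vitamin D and 6.39 under both. The region chr20:5631744-5632297, 2790 bases from VDR, gave 4.17, 3.97, 30.6 and 5.75. Here the combined treatment stood far below vitamin D alone. One site was higher in every treated library: chr21:42951907-42952405, 71.8 kb from the protease gene TMPRSS2 and 2626 bases from VDR, gave 2.92 untreated and then 13.9, 16.8 and 17.2. Among the lowest ratios, chr4:153943466-153945711 gave 20.03 untreated, 5.95 under IL-13, 15.02 under vitamin D and 10.2 under both, and chr1:182142757-182145264 gave 12.1, 8.60, 3.47 and 5.75.

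Distance to a factor region, beyond the barred overlap, went with the change in height. The median distance was 180 kb to a STAT6 region (IL-13) and 53.2 kb to a VDR region (vitamin D). For the other intergenic regions under the length limit the medians were 193 and 51.9 kb. Over all untreated H3K27ac regions they were 206 and 47.6 kb, with regions touching a factor counted in both sets. The STAT6 list held 4802 regions and the VDR list 9224. Within 1 kb of STAT6 lay 71 regions, whose centred median under IL-13 was 0.63, with 36 (50.7%) more than 1.5-fold above and none below. The 221 regions at 1 to 5 kb had a median of 0.07 and 15.4% above, the 1201 at 5 to 50 kb had -0.05 and 7.24%, and the 4121 beyond 50 kb had -0.11 and 4.66%. Vitamin D alone gave a median of 0.05 with 21.1% above for the 71 regions within 1 kb of STAT6, and both agents gave 0.47 with 43.7%. The 136 regions within 1 kb of VDR had a median of 0.14 under vitamin D, with 20.6% above, against -0.15 and 2.52% above for the 2895 beyond 50 kb. IL-13 alone gave the same 136 regions a median of 0.02 with 17.6% above, against -0.09 and 5.18% beyond 50 kb. Whether the treatments differ near either factor was not tested. In 31 regions the overlapping H3K27ac region of IL-13 cells itself touched STAT6, and 27 of these lay above, with a median of 1.36. For vitamin D and VDR there were 32 such regions, with 25 above and a median of 1.25. In the crossed pairs, of 21 regions whose IL-13 partner touched VDR, 15 lay above with a median of 1.19, and of 17 whose vitamin D partner touched STAT6, 11 lay above with a median of 1.06. Counting either factor and any of the 3 treated libraries, 86 regions had such a partner, and removing them left 5528. How many of the 31 regions lie among the 71 within 1 kb of STAT6 was not counted, so their part in the median of 0.63 is not known. Regions within 1 kb of STAT6 were also lower and shorter before treatment (median fold 5.84, 669 bases) than all 5614, and the part of this in their ratio was not tested. With an untreated fold of 6.68 or less no region could lie below under IL-13, so the absence of regions below near STAT6 is not read as a result.

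**Figure D2:**
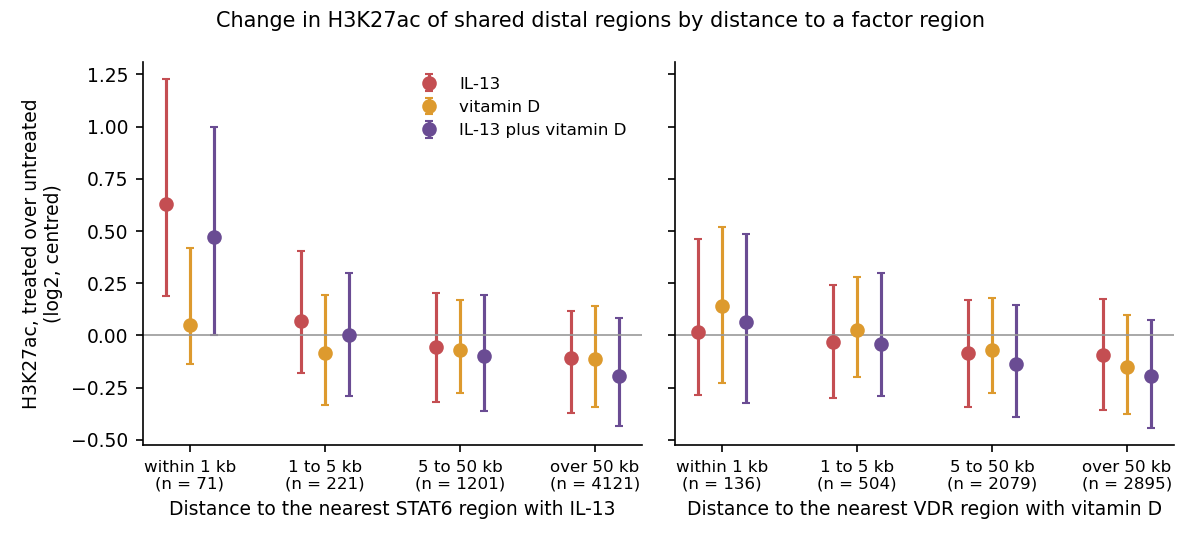
Centred log2 ratio of H3K27ac fold enrichment, treated over untreated, for shared distal regions by distance to the nearest STAT6 region (left) or VDR region (right); points are medians and bars the 25th to 75th percentile over regions. The IL-13 median falls from 0.63 within 1 kb of STAT6 to -0.11 beyond 50 kb, while the vitamin D points on the left stay between -0.11 and 0.05.

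H3K9ac, which played no part in the choice, lay at a similar minority of these regions in each treatment. It was present at 2287 (40.7%, exact binomial 95% interval 39.4 to 42.0) untreated, 2089 (37.2%, 35.9 to 38.5) with IL-13, 2329 (41.5%, 40.2 to 42.8) with vitamin D and 2112 (37.6%, 36.4 to 38.9) with both. The intervals cover counting error only. Where the treated H3K27ac region had to cover at least 50% of the untreated one, 2146 regions remained and the untreated share was 63.9%; counted at the highest summit alone it was 20.8%. Over all untreated H3K27ac regions the shares were 27.4%, 27.1%, 29.1% and 27.9%, and over the 21418 other intergenic regions under the length limit 11.2%, 11.9%, 13.5% and 12.3%. Intergenic regions missing from a treated list carried it in 3.35% to 5.10%. Shared regions at STAT6 only, 398 in number, carried H3K9ac in 53.5% untreated, 69.8% under IL-13, 57.8% under vitamin D and 68.1% under both. Those at VDR only, 903 in number, stood at 55.9%, 49.1%, 69.4% and 60.0%. Whether the spread between treatments differs between these classes was not tested.

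The mark followed height, and length rose with height. Untreated H3K9ac lay at 10.5% of the 1404 regions lowest in untreated H3K27ac fold (2.92 to 6.68) and at 82.8% of the 1404 highest (12.1 to 33.0). The lowest had a median length of 785 bases and the highest 2150.5. The parts of height and length were not told apart. Regions with H3K9ac in none of the 4 libraries numbered 1901, with a median untreated H3K27ac fold of 7.09, and those with it in all 4 numbered 982, with 15.4. In those 982 the median H3K9ac fold was 5.76 untreated, 5.39 under IL-13, 5.45 under vitamin D and 5.46 under both. Single regions moved in and out of the lists: with IL-13, 668 gained and 866 lost H3K9ac against untreated, with vitamin D 775 and 733, and with both 661 and 836. Strong H3K9ac was rare, as 1.09% of shared distal regions untreated and 0.285% to 0.748% treated met an H3K9ac region with a -log10 q of at least 10. That share was not counted over all H3K27ac regions, so it is not read as particular to these. Over the whole H3K9ac lists the median fold was 5.76 untreated, 4.71 under IL-13, 4.77 under vitamin D and 4.78 under both. H3K4me3, barred in untreated cells, appeared in at least 1 treated list at 145 regions (2.58%).

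**Figure D3:**
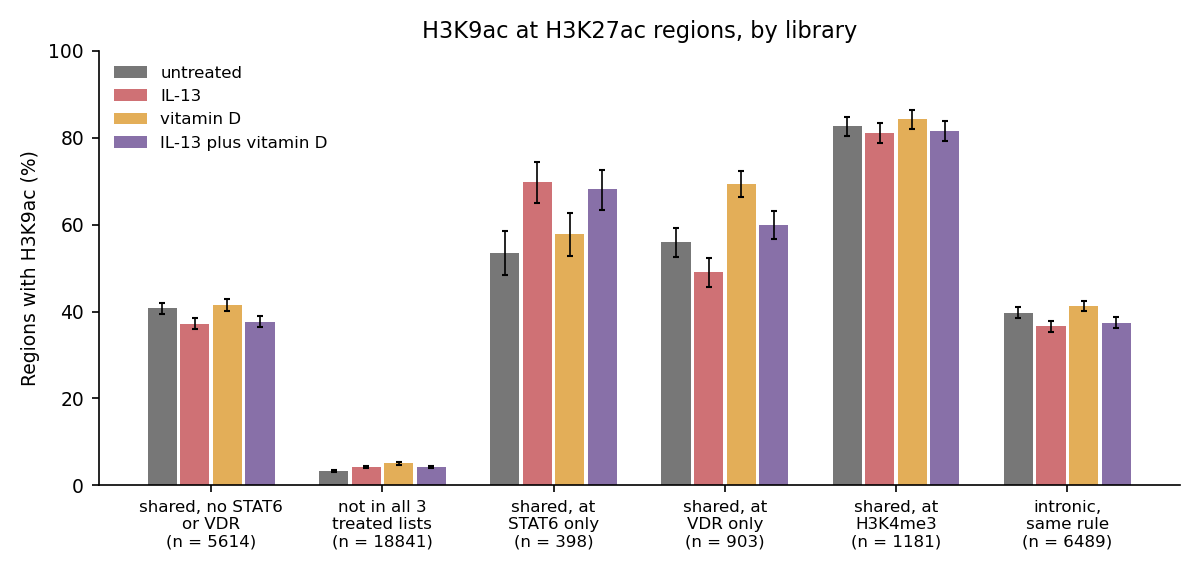
Percent of H3K27ac regions that share a base with an H3K9ac region, by class and library, with exact binomial 95% intervals for counting error. Shared regions without STAT6 or VDR lie between 37.2% and 41.5%, whereas regions at STAT6 only reach 69.8% with IL-13 and those at VDR only 69.4% with vitamin D.

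Most of these regions lay far from genes. The median distance to the nearest gene start was 78.7 kb, and 2301 (41.0%) lay beyond 100 kb. Some lay in runs. The largest run had 9 regions over 67.1 kb at chr2:237619556-237686685, beside the chemokine receptor gene CXCR7, with 6 of the 9 carrying untreated H3K9ac. Its highest region reached 33.0 untreated, 14.5 under IL-13, 30.05 under vitamin D and 17.2 under both.

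Counted by nearest start, the genes with most shared distal regions were KLF6 with 23, ACTL7B with 21, C3orf67 and SOX9 with 19 each and KLF5 with 18, followed by KLF4, PHLDA1 and SUMO1P1 with 14 each. KLF4, KLF5 and KLF6 are zinc-finger transcription factors, and KLF4 and KLF5 are known regulators of squamous and basal epithelium. SOX9 is a developmental transcription factor known for distant enhancers. A nearest gene is a position only, and whether any of these regions acts on it was not tested. ACTL7B, a testis actin-like gene, was at or under 0.014 RPKM in every group of the authors' deposited tables.

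The 18 regions of KLF5 all lay downstream of its start, from 31.3 to 526 kb. Their median fold was 9.81 untreated, 5.95 under IL-13, 6.36 under vitamin D and 6.39 under both. The centred medians were -0.15 under IL-13, -0.20 under vitamin D and -0.29 under both. The highest, at 371 kb (chr13:74001785-74005554), had 23.8, 16.5, 20.8 and 12.1. KLF5 mRNA stood at 130 RPKM untreated, 129 under IL-13, 98.96 under vitamin D and 102 under both in the authors' deposited tables. It fell with vitamin D (log2 -0.34, adjusted p 3.34e-29) and gave a log2 of -0.04 with IL-13 (adjusted p 0.467), per the authors' deposited tables. SOX9 had 18 of its 19 regions upstream, as far as 931 kb away, including 6 within a stretch of 39.1 kb. The highest of these 6 (chr17:69970984-69973139) had folds of 25.04, 15.9, 19.1 and 16.6. SOX9 mRNA was at 13.8, 8.34, 11.6 and 7.38 RPKM in the same order in the authors' deposited tables and fell with IL-13 (log2 -0.73, adjusted p 1.26e-46). Of its 19 regions, 16 lay under the library median ratio with IL-13, 3 of them past 1.5-fold below and none past it above.

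JAG1, a Notch ligand, had 11 of 12 regions upstream. The farthest, at 279 kb (chr20:10933204-10936059), had a fold of 22.1 untreated, 12.6 under IL-13, 9.82 under vitamin D and 7.03 under both. Under vitamin D, 10 of the 12 lay under the library median and 6 past 1.5-fold below. JAG1 mRNA was 41.4 RPKM untreated, 32.2 under IL-13, 26.1 under vitamin D and 23.3 under both in the authors' deposited tables, a fall with vitamin D of log2 -0.61 (adjusted p 6.98e-93). BMP2, a bone morphogenetic protein, went the other way in the authors' deposited tables: 4.74, 4.73, 13.9 and 12.7 RPKM, a rise of log2 1.58 with vitamin D (adjusted p 7.61e-193). Its 11 regions had a centred median of -0.21 under vitamin D, with 7 under the library median and none past 1.5-fold in either direction. JAG1 and most of its regions were thus both lower under vitamin D, while BMP2 rose beside regions that were not higher. JAG1 and BMP2 were singled out after their values were seen. KLF6 had 12 regions upstream and 11 downstream, with a centred median of -0.21 under IL-13, and its mRNA rose with IL-13, from 45.3 to 50.3 RPKM (log2 0.13, adjusted p 0.00102 per the authors' deposited table).

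**Figure D4:**
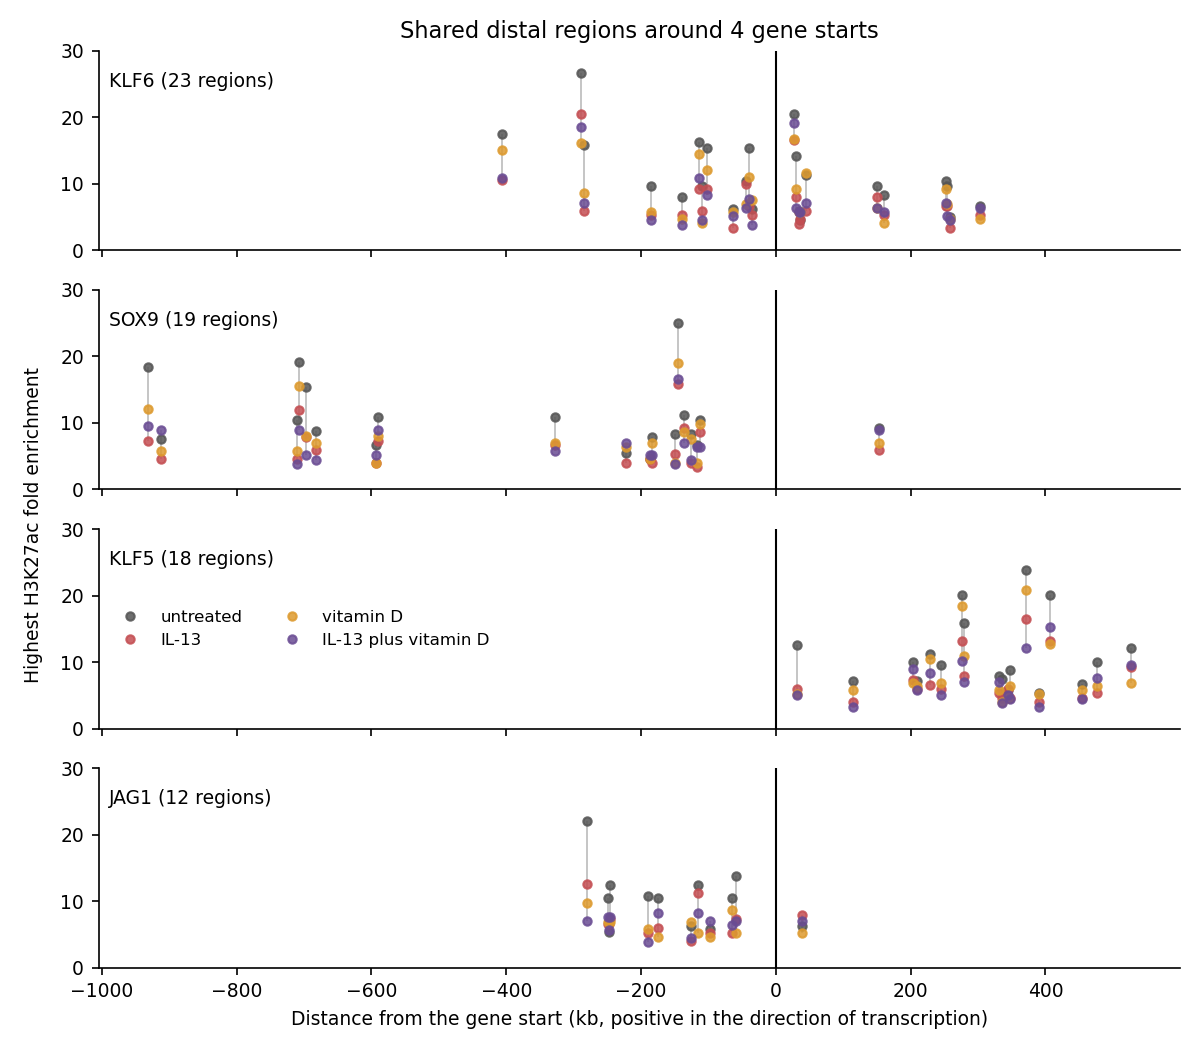
Highest H3K27ac fold enrichment of each shared distal region nearest to KLF6, SOX9, KLF5 or JAG1 against its distance from the gene start in kb (positive in the direction of transcription); grey lines join the 4 libraries of a region. Untreated points are usually the highest, but the folds are not centred. Over all regions with a partner the median log2 ratio to untreated was also below 0, at -0.45 for IL-13, -0.26 for vitamin D and -0.39 for both. All 18 regions of KLF5 lie downstream while 18 of 19 at SOX9 lie upstream.

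The share of genes with a change in mRNA was higher next to shared distal regions than over all genes. In bulk RNA, fewer cells of a type and less RNA per cell cannot be told apart. In the deposited lists each intergenic region is paired with a gene, which gave 2311 genes. In the authors' deposited table of IL-13 against untreated, 1635 of these were tested and 39.1% had an adjusted p under 0.05, against 26.3% of all genes. With IL-13, 288 rose (17.6% against 12.3%) and 351 fell (21.5% against 14.0%). With vitamin D, 48.2% changed against 32.5%, 332 rising (20.3% against 17.5%) and 456 falling (27.9% against 15.1%), per the authors' deposited table. With both agents, 46.5% changed against 31.7%, 371 rising (21.8% against 16.0%) and 420 falling (24.7% against 15.7%). With both against vitamin D alone, 45.6% changed against 33.2%, 385 rising (24.3% against 16.4%) and 338 falling (21.3% against 16.9%). The paired gene was the next gene to the right in 99.98% of regions and had the nearest start in 44.4%, so genes are named below by nearest start. By that reading 40.1%, 50.8%, 49.0% and 46.6% of tested genes changed in the 4 tables.

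These genes were also more highly expressed, with a median of 6.57 RPKM untreated against 5.28 over all tested genes in the authors' deposited table. Among genes at 1 RPKM or more in either group, 47.3% of nearest genes changed with IL-13 against 32.0% of all, and 58.8% against 39.4% with vitamin D. Genes nearest to an intergenic region missing from a treated list changed in 36.5% with IL-13 and 45.7% with vitamin D. Without those also nearest to a shared distal region, the shares were 31.6% and 38.7%. Genes nearest to shared regions at STAT6 changed in 43.5% with IL-13, with 95 rising and 42 falling, per the authors' deposited table. For shared distal regions that balance was 319 rising and 419 falling. At VDR, 57.8% changed with vitamin D, with 237 rising and 143 falling, against 418 rising and 518 falling at shared distal regions. Most changes were under 2-fold, but larger ones were a higher share than over all genes. Of tested nearest genes, 2.06% changed by 2-fold or more with IL-13 and 4.28% with vitamin D, against 1.19% and 1.70% of all tested genes. No test was made of these differences between gene sets, and a gene can belong to several.

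The share was higher for genes with more regions. Of tested genes nearest to 1 region, 35.5% changed with IL-13 and 45.5% with vitamin D. For 2 to 3 regions the shares were 44.4% and 54.0%, and for 4 to 7 they were 44.5% and 59.4%. Of the 50 tested genes with 8 or more, 58.0% changed with IL-13, 7 rising and 22 falling, and 78.0% with vitamin D, 13 rising and 26 falling, in the authors' deposited tables. Their median untreated level was 13.4 RPKM. The 2 tables that isolate IL-13 without and with vitamin D share no group. Of 1792 nearest genes tested in both, 601 changed in the same direction, which is 81.5% of those called without vitamin D and 71.7% of those called with it, and 6 changed in opposite directions. Over all genes the shares were 76.1% and 61.4%.

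**Figure D5:**
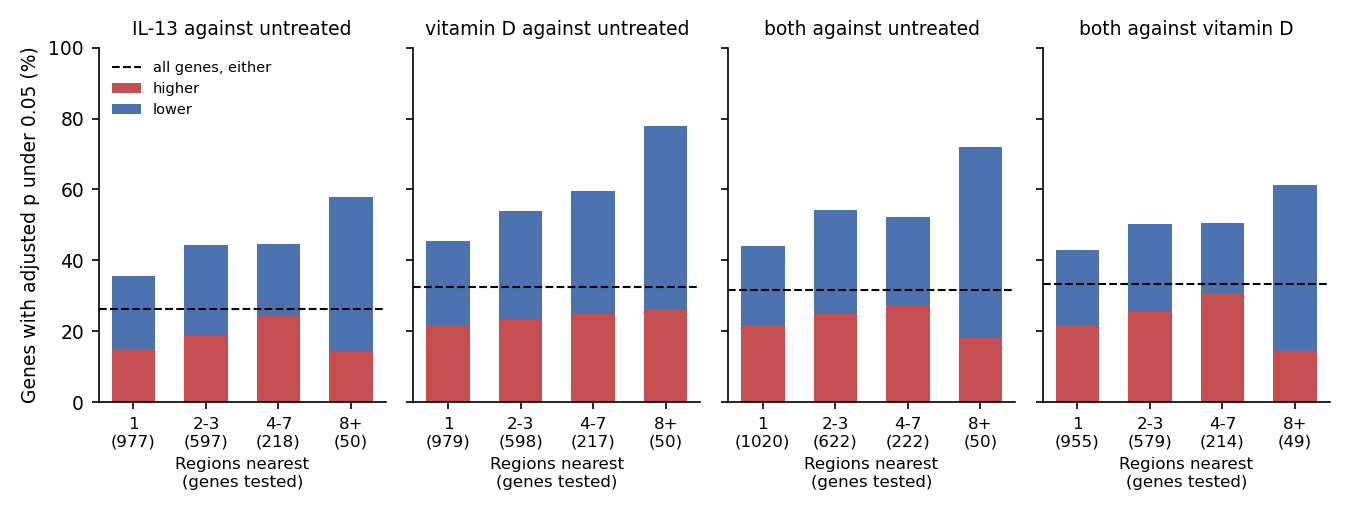
Percent of tested genes with an adjusted p under 0.05 in the authors' deposited tables, split into higher and lower, by the number of shared distal regions nearest to the gene (number of tested genes in brackets); the dashed line is the share of all tested genes. With vitamin D the bars rise from 45.5% for 1 region to 78.0% for 8 or more, over a line at 32.5%.

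Of the 2638 genes nearest to a shared distal region, 1402 had 1 such region and 874 had 2 to 3. With IL-13, 1.23% of tested genes with 1 region changed by 2-fold or more. The share was 2.51% for 2 to 3 regions, 4.59% for 4 to 7 and 1 of 50 genes for 8 or more. With vitamin D it was 3.68%, 5.52%, 4.15% and 1 of 50. Large changes were thus not particular to genes with fewest regions. The nearest genes with the largest changes (5 in each direction) had 1 to 4 regions. For IL-13 they included ANO1, a calcium-activated chloride channel, from 7.31 to 53.7 RPKM (log2 2.83) with 2 regions, and RPTN, an epidermal differentiation protein, from 5.77 to 27.4 (log2 2.18) with 4, in the authors' deposited table. ADAMTS15, an extracellular protease, rose with IL-13 from 2.13 to 9.75 RPKM (log2 2.12) beside 3 regions, and the growth factor carrier FGFBP1 fell from 224 to 101 (log2 -1.16) beside 2. RASL11B had 1 region, at 27.5 kb, with a centred ratio of 1.12 under IL-13, and its mRNA rose from 0.585 to 4.53 RPKM (log2 2.56), per the authors' deposited table. For vitamin D the largest rise among these nearest genes was that of CD14, a co-receptor for bacterial lipopolysaccharide, from 2.62 to 132 RPKM (log2 5.57), beside 1 region with a centred ratio of 0.46. CD14 is also used as a marker of monocytes, and every group here was the epithelial line EPC2. The cause of the CD14 rise was not tested. FOS, an AP-1 subunit, went from 1.24 to 13.8 RPKM (log2 3.39), and its 3 regions had a centred median of 0.05 under vitamin D. SOX2, a stem cell transcription factor, fell with vitamin D from 10.5 to 2.22 RPKM (log2 -2.10), and the desmosomal cadherin DSG1 fell from 16.4 to 3.68 (log2 -2.08), with 3 regions each in the authors' deposited table. KITLG rose with IL-13 (log2 1.52), fell with vitamin D (log2 -1.74) and stood at 2.49 RPKM with both against 2.37 untreated.

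Transcription factors of squamous epithelium were among the nearest genes. Of a list of 22, 13 were nearest to a total of 58 shared distal regions. Of 23531 distinct genes with RNA values, 2638 were nearest to such a region, a background for this and the lists that follow. Of the 13 factors, 5 rose and 6 fell under IL-13, and 5 rose and 7 fell under vitamin D, per the authors' deposited tables. Over all tested genes, the shares to set beside this and the lists that follow were 12.3% rising and 14.0% falling under IL-13, and 17.5% and 15.1% under vitamin D. TP63, the master regulator of stratified epithelium, was at 50.7, 72.3, 37.6 and 58.3 RPKM and had 3 regions 204 to 216 kb from its start with folds of 8.35 to 10.02 and centred medians of -0.09, -0.27 and -0.13. Over the whole list of 22, 6 rose and 11 fell with IL-13 (median log2 -0.11), and 8 rose and 11 fell with vitamin D (-0.04). Of 21 factors of the AP-1, TEAD, C/EBP and RUNX families, 8 were nearest to 20 regions. Of these 8, 2 rose and 5 fell under IL-13, 4 rose and 1 fell under vitamin D, and 5 rose and 3 fell under both, and of the 19 tested in the whole list 3 rose and 9 fell under IL-13 and 6 rose and 3 fell under vitamin D. RUNX1 had 6 regions, 5 with untreated H3K9ac, a centred median of -0.57 under IL-13 and an mRNA fall from 3.78 to 2.98 RPKM (log2 -0.35) per the authors' deposited table. RUNX2, also with 6, had a centred median of 0.01 and rose from 1.48 to 2.42 RPKM (log2 0.66) in the authors' deposited table. Of 30 growth factors and receptors, 16 were nearest to 58 regions. Of these 16, 2 rose and 6 fell under IL-13 and 5 rose and 7 fell under vitamin D, and of the 27 tested in the whole list 2 rose and 16 fell under IL-13 and 9 rose and 11 fell under vitamin D. Of 34 genes of keratinocyte structure and adhesion, 7 were nearest to 18 regions. Of these 7, 2 rose and 4 fell under IL-13 and 1 rose and 5 fell under vitamin D, and of all 34 in the list 6 rose and 21 fell under IL-13 and 11 rose and 14 fell under vitamin D.

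Of a list of 25 known response genes of IL-13 and vitamin D, 6 were nearest to 12 regions. With IL-13 3 of the 6 rose and 2 fell, and with vitamin D likewise 3 rose and 2 fell, per the authors' deposited tables. SOCS1, the feedback inhibitor of STAT signalling, had 4 of them at 46.4 to 56.5 kb and rose with IL-13 from 4.18 to 15.7 RPKM (log2 1.79) in the authors' deposited table, while the regions had a centred median of 0.32. SERPINB1 rose with vitamin D from 64.0 to 407 RPKM beside 1 region whose centred ratio was 0.01. Of a list of 24 genes of the histone acetylation machinery, 1 was nearest to shared distal regions, 10 in number. Of the 22 measured genes of this list, 1 rose and 7 fell with IL-13, per the authors' deposited tables. With vitamin D 5 rose and 1 fell. Over all tested genes the shares were 12.3% rising and 14.0% falling with IL-13, and 17.5% and 15.1% with vitamin D.

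Acetylation of the regions leaned the way of the nearest gene, by small amounts. The 755 regions nearest to genes that rose with IL-13 had a centred median of 0.02, with 9.14% more than 1.5-fold above and 6.23% below. The 1002 nearest to genes that fell had -0.16, with 3.69% above and 12.3% below, and the 2221 nearest to tested genes without a call had -0.08. Beside the 31 genes that rose at least 2-fold, 89 regions had a median of 0.18 and 14.6% above. With vitamin D the medians were 0.03 for 925 regions beside rising genes, -0.16 for 1332 beside falling genes and -0.10 for 1719 beside genes without a call. With both they were -0.07, -0.22 and -0.16. The groups overlap: for IL-13 the 25th to 75th percentiles ran from -0.28 to 0.31 beside rising genes and from -0.42 to 0.12 beside falling genes. Regions of 1 gene are not independent, and no test was made.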

How the data were processed

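The members and gene lists were chosen with earlier results of these data known. Reads had been processed with MACS2, Bowtie, STAR, SAMtools and Trim Galore on GRCh37 or hg19, per the submitters' processing notes. Their versions, and the test behind the adjusted p-values, were not given in the sources used here. Each deposited peak list gives, per the file headers, a pileup (signal height, in fragments), a fold enrichment and a -log10 q for each summit, made by the authors from 1 library per mark and treatment. The authors' deposited RNA tables give 1 RPKM per group of 3 samples, a log2 change, a p-value and an adjusted p-value for 23533 genes. The title of 1 table names IL-13 where its column headers name vitamin D; it was read by its headers, as vitamin D alone against both agents.

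Summits were merged into regions, overlap meant at least 1 shared base, rows without a q were dropped, and the fold of the highest summit was used. Ratios were centred on the median of all regions shared by 2 libraries. Genes with an adjusted p of 1 counted as not tested. Shares carry exact binomial (Clopper-Pearson) 95% intervals. The code was tested on simulated data. Regions were named by height, ratio, distance to a factor and the length limit. Genes were named by number of nearest regions (6), by largest change (5 in each direction) and by list; PHLDA1, SUMO1P1 and the choice of promoters fell outside that rule. The gene nearest by start, and leaving out regions whose treated partner touched a factor, were added after the data were seen. Python 3.11.15 with pandas 2.3.3 and scipy 1.17.1 was used. ChIP depth is known only through the background per base. Results for 2 genes are not reported here.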

Additional observations from a re-analysis of the deposited data

How the results depend on the processing

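Of 157 values recomputed for 24 results, 118 stayed within the limits set for them, 39 moved and 0 reversed. The limit was 1.5 times for counts and shares of called genes and for shares past 1.5-fold, and the 95% interval for H3K9ac shares, distance shares and medians. Where the treated region had to cover at least 50% of the untreated region, 2146 members remained, H3K9ac lay at 63.9%, 62.2%, 64.4% and 62.2% (untreated, IL-13, vitamin D, both) and the median uncentred log2 ratio was -0.56 for IL-13 and -0.36 for vitamin D. With an untreated -log10 q of at least 10 the H3K9ac shares were 51.2%, 45.7%, 50.8% and 46.0%, the median ratios -0.64, -0.45 and -0.64, and the shares above 1.5-fold 1.59%, 1.23% and 1.44%. Below 2000 bases the H3K9ac shares were 30.3%, 27.6%, 31.1% and 27.5%, and the median ratio -0.51 for IL-13 and -0.50 for both. With no STAT6 or VDR region within 5 kb the median ratios were -0.56, -0.38 and -0.57. Pileup in place of fold gave -1.29, -0.89 and -1.25, which also carries the depth of the libraries. H3K9ac at the highest summit itself was found in 20.8%, 17.9%, 21.3% and 19.1%, and H3K9ac regions with a -log10 q of at least 10 in 1.09%, 0.285%, 0.748% and 0.499%. With factor regions of that q, 12.01% lay within 50 kb of STAT6 and 27.8% within 50 kb of VDR, against 26.6% and 48.4% with all factor regions. For the other intergenic regions under the length limit, the shares with all factor regions were 27.1% and 49.3%. The cause of the moves from the main setting was not tested. The other settings (H3K4me3 barred in any library, adjusted p under 0.01, genes at 1 RPKM or more, genes within 50 kb, RPKM pseudocounts of 0.1 and 1, nearest start, members without a factor-touching partner, and centring on H3K4me3 regions) moved none of their values past those limits. Within them, the share of called genes with IL-13 went from 39.1% to 45.9% at 1 RPKM or more and to 33.4% at adjusted p under 0.01, and with vitamin D from 48.2% to 56.7% and 40.8%. Centring on H3K4me3 regions turned the balance for IL-13, from 6.22% above and 9.17% below to 8.85% and 7.02%; each share was judged on its own, so this is not among the reversals. The nearest start and the removal of members with a factor-touching partner were chosen after seeing the data. Motifs at summits and their alternatives were not run. No paired analysis was possible because each mark has 1 library per treatment and the RNA tables hold 1 value per group, so no replicate could be left out either. Depth limits single regions: at the median pileup a 1.5-fold ratio is of the size of a single Poisson standard deviation. That value lies above the spread seen over regions.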

Other observations

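Introns held a set of like size under the same criteria. Of the untreated H3K27ac regions annotated as intronic, 6489 met every other criterion, with a median length of 1298 bases and a median untreated fold of 8.35. H3K9ac lay at 39.7% of them untreated, 36.6% under IL-13, 41.2% under vitamin D and 37.5% under both, and the centred medians of H3K27ac were -0.05, -0.08 and -0.11. Whether intronic and intergenic regions differ was not tested.

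Shared intergenic regions that touched both STAT6 and VDR numbered 95, and H3K9ac lay at 73.7%, 82.1%, 72.6% and 87.4% of them in the same order. Genes nearest to a shared distal region and to no shared region at STAT6 or VDR numbered 1393, and with vitamin D 111 of them rose and 264 fell in the authors' deposited table, which is 12.54% and 29.8% of those tested, beside 17.5% and 15.1% over all tested genes. With IL-13 115 rose and 167 fell (13.0% and 18.9%, beside 12.3% and 14.0%). With both agents 126 rose and 246 fell (13.5% and 26.4%, beside 16.0% and 15.7%), and with both against vitamin D alone 175 rose and 162 fell (20.5% and 18.97%, beside 16.4% and 16.9%).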
